A study of Homo sapiens with 12 samples.

Results

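CYFIP2 and its partners in the WAVE complex were followed across 12 expression arrays of MDA-MB-231, a human breast cancer line that is triple-negative (low in estrogen receptor, progesterone receptor and HER2). The set was fixed by name and held 8 genes, CYFIP1, CYFIP2, NCKAP1, WASF1, WASF2, WASF3, ABI1 and ABI2. Probe sets listed for 1 gene alone were found for 6 of them, 9 probe sets among the 22277 on the array; WASF1 and ABI2 were not analysed here. The 4 groups of 3 biological replicates were vehicle (DMSO), SAHA at 5 uM, pargyline at 2.5 mM, and SAHA at 5 uM given together with pargyline at 2.5 mM (labelled COMBO), all harvested at 24 h. SAHA, also called vorinostat, inhibits histone deacetylases, and pargyline inhibits monoamine oxidases and can inhibit the histone demethylase LSD1. The labels give 1 cell line and do not say how the replicate cultures were separated, so p-values measure the spread between these samples.

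The WAVE complex switches on branched actin assembly at the edge of moving cells. A CYFIP subunit (CYFIP1 or CYFIP2) and NCKAP1 form one lobe of the complex, and a WASF protein (also called WAVE), an ABI protein and the small subunit BRK1 form the other. The complex holds the active end of the WASF protein shut until the GTPase RAC1 binds the CYFIP subunit, and the freed end then turns on the Arp2/3 complex, which starts new actin branches. In carcinoma cells this machinery drives lamellipodia and invasion, and CYFIP proteins are also known as partners of the RNA-binding protein FMRP in the control of translation.

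CYFIP2 was taken as the lead gene for its interaction value, the log2 difference between SAHA plus pargyline and SAHA minus that between pargyline and DMSO. Over all 11963 genes tested, each by its probe set with the highest mean, that value (2.14 ± 0.38, SE) came at place 5, behind RND1 (2.84), IL21R (2.69), HLA-DPB1 (2.34) and NR4A1 (2.34). The genes just below it among all were NCALD (2.12) and MYLIP (2.11). These values chose the gene, so all CYFIP2 values are given as a description with no test.

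Upstream sequence of CYFIP2, CYFIP1 and WASF3 is shown because CYFIP2 and WASF3 were higher with SAHA, a drug that acts on chromatin, while their paralogs CYFIP1 and WASF2 were lower; WASF2 has no sequence shown. The sequences are the 250 bases before a transcription start in RefSeq on GRCh38.p14, written in the direction of the gene. CYFIP2 has starts in the table at 2 places, upstream regions chr5:157265873-157266122 and chr5:157269074-157269323 on the plus strand. For CYFIP1 the start with the most GC boxes of its 4 is shown (chr15:22980369-22980618, minus strand), and for WASF3 the first of 2 overlapping regions (chr13:26557433-26557682, plus strand). Capitals mark the GC box GGGCGG on either strand (CCGCCC on the printed strand where reversed), the motif bound by Sp1-type factors, and overlapping matches were counted.
CYFIP2 start 1: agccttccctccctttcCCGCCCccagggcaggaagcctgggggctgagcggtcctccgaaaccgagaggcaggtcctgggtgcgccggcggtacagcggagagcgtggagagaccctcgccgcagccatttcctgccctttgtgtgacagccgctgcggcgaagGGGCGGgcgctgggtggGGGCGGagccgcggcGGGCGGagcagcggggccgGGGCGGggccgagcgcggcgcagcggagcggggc
CYFIP2 start 2: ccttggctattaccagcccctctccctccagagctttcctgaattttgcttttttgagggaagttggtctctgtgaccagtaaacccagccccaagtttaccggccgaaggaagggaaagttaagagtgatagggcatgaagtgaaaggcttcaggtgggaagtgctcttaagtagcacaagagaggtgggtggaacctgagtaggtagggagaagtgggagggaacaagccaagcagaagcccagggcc
CYFIP1 start 3: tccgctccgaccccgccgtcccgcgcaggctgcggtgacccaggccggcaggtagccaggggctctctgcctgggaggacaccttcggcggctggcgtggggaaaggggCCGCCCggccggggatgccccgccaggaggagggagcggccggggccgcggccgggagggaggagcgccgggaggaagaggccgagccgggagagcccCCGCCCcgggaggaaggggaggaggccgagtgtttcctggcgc
WASF3 start 1: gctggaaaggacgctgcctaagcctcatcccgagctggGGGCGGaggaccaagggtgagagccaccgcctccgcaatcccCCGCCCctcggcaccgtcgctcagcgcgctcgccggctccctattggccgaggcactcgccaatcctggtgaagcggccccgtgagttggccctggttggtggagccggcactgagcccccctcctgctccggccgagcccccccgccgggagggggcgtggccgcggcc
CYFIP2 start 1 held 5 GC boxes, 30 CpG dinucleotides and 76.4% G or C, whereas start 2 held 0 GC boxes, 2 CpG dinucleotides and 52.4% G or C. The CYFIP1 and WASF3 regions shown held 2 GC boxes each, and the other 3 CYFIP1 regions held 0. Among 35116 RefSeq upstream regions of this length, 42.6% held at least 1 GC box and 4.15% held at least 5. The CCAAT motif, searched on both strands, was found 2 times at each WASF3 start, whose windows overlap, and at no other of the 12 starts listed for 7 members, against 32% of all regions, and TATAAA at 0 of them, against 10.7%. These letters are a description of the windows and not sites of binding.

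CYFIP2 was low to middling among the probe sets without SAHA and far higher with it. With DMSO the probe set 215785_s_at, the brighter of its pair, read 5.06, 5.35 and 5.38 on the log2 scale. With SAHA it read 9.85, 9.89 and 9.78. With pargyline the 3 arrays gave 3.00, 3.08 and 4.20. With both drugs they gave 10.14, 10.17 and 10.11. The order of the groups was thus both drugs, SAHA, DMSO and pargyline, no neighbours in this order overlapped, and the pargyline arrays were the most spread, with replicate 3 above the other pair. Group means (SD, n = 3) were 5.27 ± 0.18 under vehicle, 9.84 ± 0.06 for SAHA, 3.43 ± 0.67 for pargyline and 10.14 ± 0.03 for the drug pair. Differences from DMSO were 4.58 for SAHA, -1.84 for pargyline and 4.87 for both drugs (each ± 0.27, SE), or 23.8-fold higher, 3.58-fold lower and 29.3-fold higher. Both drugs read 0.30 ± 0.27 above SAHA alone. This SE is pooled over all 4 groups, so the spread of the pargyline arrays enters it. In bulk RNA, fewer cells with a transcript and less of it per cell cannot be told apart.

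The other CYFIP2 probe set, 220999_s_at, was dimmer and placed pargyline given alone differently. It read 2.47, 2.60 and 2.52 with DMSO and 2.48, 2.50 and 2.42 with pargyline, so these groups overlapped. With SAHA it read 6.99, 7.11 and 6.82, and with both drugs 7.90, 7.48 and 7.91, which lay above all SAHA arrays. The differences from DMSO were 4.44 for SAHA, -0.06 for pargyline and 5.24 for the drug pair (each ± 0.11, SE). Both drugs exceeded SAHA by 0.79 ± 0.11. The probe sets were alike in the high level of both SAHA groups, a difference of over 4 log2 units from DMSO. They differed in pargyline given alone.

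**Figure D1:**
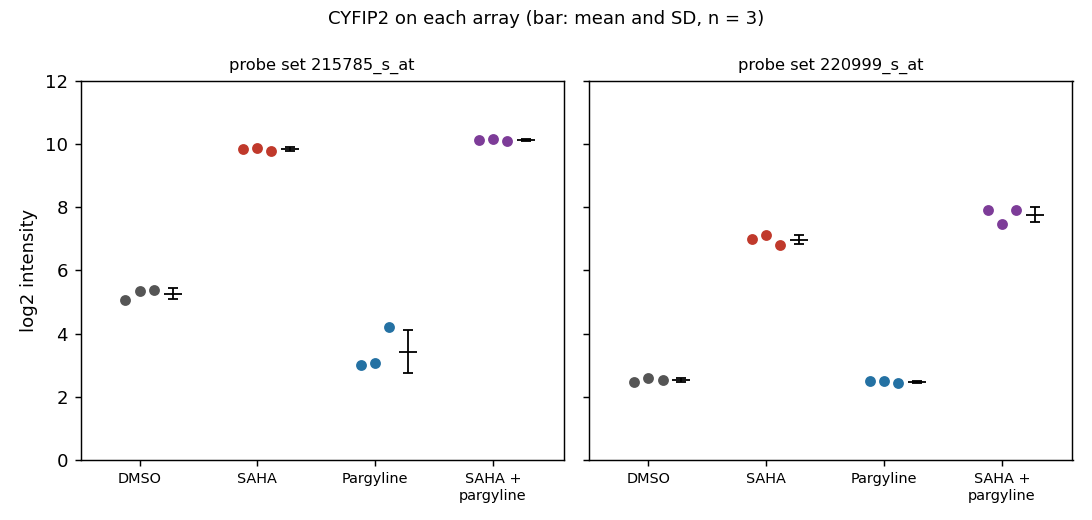
CYFIP2 log2 intensity (vertical axis) on each array by treatment group (horizontal axis), for both probe sets; points are arrays and bars are the mean and SD of 3. In both panels the SAHA arrays sit far above the DMSO and pargyline arrays, and the pargyline arrays lie below DMSO on 215785_s_at, at 3.00 to 4.20 against 5.06 to 5.38, but overlap it on 220999_s_at.

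The interaction value of CYFIP2 thus came from different places on the 2 probe sets. On 215785_s_at the value of 2.14 was made up of a difference of 0.30 in the presence of SAHA and one of -1.84 in its absence. On 220999_s_at it was 0.85 ± 0.16, made up of 0.79 with SAHA and -0.06 without it. Without SAHA the levels of 215785_s_at lay at the 50.4th percentile of all probe sets with DMSO and the 44.8th with pargyline, and those of 220999_s_at at the 33.7th and 32.6th. The files hold no detection calls, so whether these levels were above background is not given. With all values under 5.27, the median over all probe sets and arrays, set to that median, the interaction value was 0.36 and the pargyline difference -0.06, while the SAHA difference from pargyline was 4.57; this setting was chosen after the data were seen. With both probe sets averaged the interaction was 1.49 ± 0.20.

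**Figure D2:**
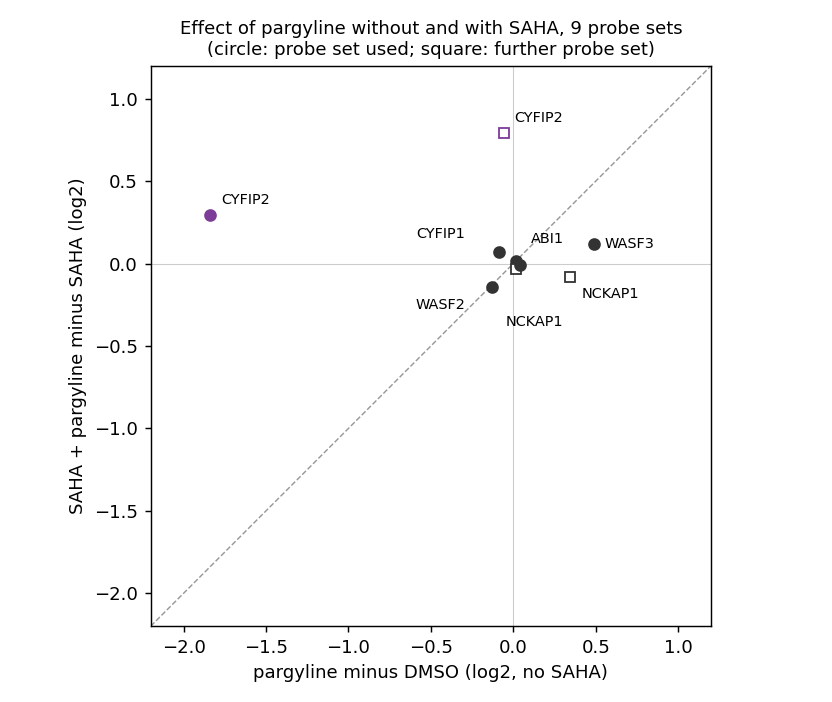
The log2 difference made by pargyline in cells without SAHA (horizontal axis) and with SAHA (vertical axis) for the 9 probe sets of the 6 measured members; circles are the probe sets used and squares the further ones, and the dashed line marks equal differences. The CYFIP2 points lie above the line, one displaced along the horizontal axis (-1.84) and the other along the vertical axis (0.79), while the other probe sets lie near the line or, for WASF3 and the dim NCKAP1 probe set, below it.

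The genes with group means most like those of CYFIP2 were chosen by the smallest root mean square difference over the 4 groups, each gene centred on its own mean. They were DNM3, a dynamin of membrane fission (0.65 log2 units from CYFIP2), HLA-DMB, which helps load peptides on MHC class II (0.67), CORO1A, a coronin that binds actin and the Arp2/3 complex (0.67), STAT4, a transcription factor of cytokine signalling (0.67), and SYT11, a synaptotagmin (0.67), over 12 arrays. All read between 1.94 and 2.93 in group mean without SAHA and between 7.42 and 8.20 with it. Against DMSO their pargyline values ran from -0.23 (DNM3) to 0.04 (STAT4), where 215785_s_at of CYFIP2 gave -1.84. Their DMSO means were 2.06 to 2.93, against 5.27 for 215785_s_at, which left little room for such a fall. Whether they differ from CYFIP2 in it cannot be told from these values. Between 2 and 5 of these genes stayed among the 5 most alike when 1 array was left out, and 3 did with quantile normalization. Several are known from leukocytes, and of 5 leukocyte markers 4 were measured and 0 lay above the median gene level with DMSO. The summed level of those 4, PTPRC, CD3D, CD14 and LYZ, was 4.33 to 4.36 with DMSO, 4.34 to 4.39 with SAHA, 4.28 to 4.36 with pargyline and 4.29 to 4.34 with both (log2 of the sum).

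Against this, the label of the cells and the arrays can be checked briefly. The 5 mesenchymal markers VIM, CD44, AXL, CAV1 and MSN all lay above the median gene level with DMSO, while ESR1, PGR and CDH1, which the line is known to lack, read between 2.03 and 3.22 on every array. The luminal genes ERBB2 and GATA3 lay above the median level with DMSO, at means of 8.28 and 9.23, and read 5.19 and 6.27 with SAHA. The summed level of the 5 luminal genes was 9.76 to 9.92 with DMSO, 6.96 to 7.11 with SAHA, 9.93 to 9.9957 with pargyline and 6.46 to 7.18 with both drugs. The summed mesenchymal level was 16.48 to 16.51 with DMSO, 15.71 to 15.81 with SAHA, 16.36 to 16.44 with pargyline and 15.66 to 15.72 with both, and the part of either sum in the results on SAHA was not tested. Of 5 fibroblast markers, 0 lay above the median gene level with DMSO. Array medians were 5.15 to 5.38, replicates correlated with r of 0.998 to 0.999 across probe sets, and 12 arrays limit the precision, with a median SE of 0.08 for a difference between groups.

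Of the 5 partners measured, 3 fell, 1 rose and 1 did not pass with SAHA, whereas 1 rose and none fell with pargyline alone. The threshold for rose or fell was an adjusted p under 0.05 in limma's moderated test, with Benjamini-Hochberg adjustment over all 11963 genes. CYFIP1, NCKAP1 and WASF2 fell and WASF3 rose with SAHA and with both drugs. ABI1 did not pass in any comparison. Against DMSO, 4 of the 5 partners passed with SAHA, where 46.2% of all genes were called (23% higher and 23.1% lower). With both drugs 4 of 5 passed, against 48.3% of all genes (24.3% higher and 24% lower). With pargyline 1 of 5 passed, against 15.9% of all genes (8.48% higher and 7.45% lower). The median partner difference was -0.34 with SAHA, 0.02 with pargyline and -0.42 with both, beside 0.00, -0.02 and -0.01 over all genes. With 5 partners and close to every other gene called, these counts set the partners apart from no other genes. These 3 comparisons share the DMSO arrays.

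**Figure D3:**
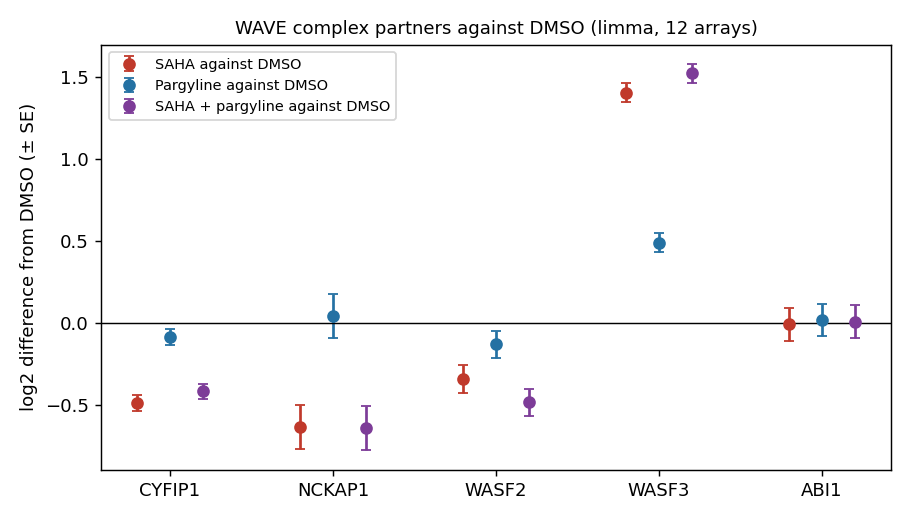
Log2 difference from DMSO (vertical axis, ± SE, limma on 12 arrays) of the 5 measured partners (horizontal axis) with SAHA, pargyline or both drugs. WASF3 stands at 1.40 and 1.52 in the SAHA groups, CYFIP1, NCKAP1 and WASF2 lie between -0.34 and -0.64 there, and the ABI1 points lie near 0.

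CYFIP1, the widely expressed paralog of CYFIP2 that takes the same place in the complex, went the other way with SAHA. It read 12.35, 12.39 and 12.42 with DMSO and 12.27, 12.27 and 12.35 with pargyline. With SAHA it read 11.93, 11.82 and 11.94, and with both drugs 11.91, 11.94 and 12.05. The groups without SAHA overlapped each other, as did the groups with it, and no array crossed between these pairs of groups. CYFIP1 fell by 0.49 ± 0.05 with SAHA (1.40-fold lower, adjusted p = 1.65e-05 in limma) and by 0.42 ± 0.05 with both drugs (adjusted p = 3.99e-05 in limma). Pargyline gave -0.09 ± 0.05 (adjusted p = 0.298 in limma), or -0.22 with adjusted p = 0.0045 once each array was centred on its median. That centring put the median gene itself at -0.15 with pargyline. CYFIP1 fell by 0.33 with both drugs against pargyline (adjusted p = 0.000229 in limma), and both drugs against SAHA gave 0.07 ± 0.05.

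NCKAP1, the scaffold subunit that binds the CYFIP protein, fell in both SAHA groups by a like amount. It read 12.29, 12.27 and 12.63 with DMSO, 11.50, 11.78 and 12.0001 with SAHA, 12.37, 12.59 and 12.34 with pargyline, and 11.69, 11.80 and 11.77 with both drugs. The levels of both SAHA groups lay below those of the other groups without overlap, and the range of the arrays with both drugs lay inside that of the SAHA arrays. The fall was 0.63 ± 0.13 with SAHA (1.55-fold lower, adjusted p = 0.00293 in limma) and 0.64 ± 0.13 with both (adjusted p = 0.0025 in limma). Pargyline gave 0.04 ± 0.13 (adjusted p = 0.89 in limma). A dim further probe set, 217465_at, with group means from 3.46 to 4.90, gave -1.01 ± 0.21 with SAHA and -1.09 ± 0.21 with both drugs, and both passed. NCKAP1L, its counterpart in blood cells, read between 2.25 and 2.28 in group mean and did not pass against DMSO with either drug or both (adjusted p from 0.544 to 0.944 in limma).

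WASF2 and WASF3 encode alternative actin-activating subunits, of which WASF2 is the broadly expressed one and WASF3 has been tied to invasion in breast cancer. WASF3 read 8.84, 9.07 and 8.91 with DMSO, 9.35, 9.47 and 9.47 with pargyline, 10.34, 10.38 and 10.30 with SAHA, and 10.43, 10.44 and 10.50 with both drugs. Its groups did not overlap in any pair, in the order DMSO, pargyline, SAHA and both drugs. WASF3 rose by 1.40 ± 0.06 with SAHA (2.64-fold, adjusted p = 6.9e-08 in limma), by 0.49 ± 0.06 with pargyline (1.40-fold, adjusted p = 0.000718 in limma) and by 1.52 ± 0.06 with both (2.87-fold, adjusted p = 3.69e-08 in limma). It was the partner that passed with pargyline. Between the highest neighbours, both drugs and SAHA, the difference was 0.12 ± 0.06 and did not pass (adjusted p = 0.215 in limma).

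WASF2 read 9.74, 9.71 and 9.72 with DMSO, the tightest of all member groups, and 9.41, 9.45 and 9.28 with SAHA. It read 9.74, 9.38 and 9.66 with pargyline and 9.21, 9.21 and 9.29 with both drugs. The SAHA groups lay below the DMSO arrays, while pargyline replicate 2 fell among the SAHA arrays. WASF2 fell by 0.34 ± 0.08 with SAHA (1.27-fold lower, adjusted p = 0.00681 in limma) and by 0.48 ± 0.08 with both drugs (1.40-fold lower, adjusted p = 0.000736 in limma). Pargyline gave -0.13 ± 0.08 (adjusted p = 0.385 in limma), or -0.26 with adjusted p = 0.0367 with array centring, where the median gene stood at -0.15. SAHA against pargyline gave -0.21 ± 0.08 and did not pass (adjusted p = 0.0668 in limma), but without pargyline replicate 2 it was -0.32 with adjusted p = 0.00118, and it also passed with array weights (-0.24).

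ABI1, the adaptor that links the WASF protein to NCKAP1, read 10.90, 11.00 and 11.33 with DMSO, 10.94, 11.09 and 11.16 with SAHA, 11.16, 11.06 and 11.05 with pargyline, and 11.11, 11.09 and 11.04 with both drugs. All 4 groups overlapped. The differences from DMSO were -0.01, 0.02 and 0.01 (each ± 0.10), with adjusted p of 0.943 to 0.983 in limma. Its further probe set 209028_s_at gave 0.14, 0.02 and 0.10 (each ± 0.19) and did not pass.

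**Figure D4:**
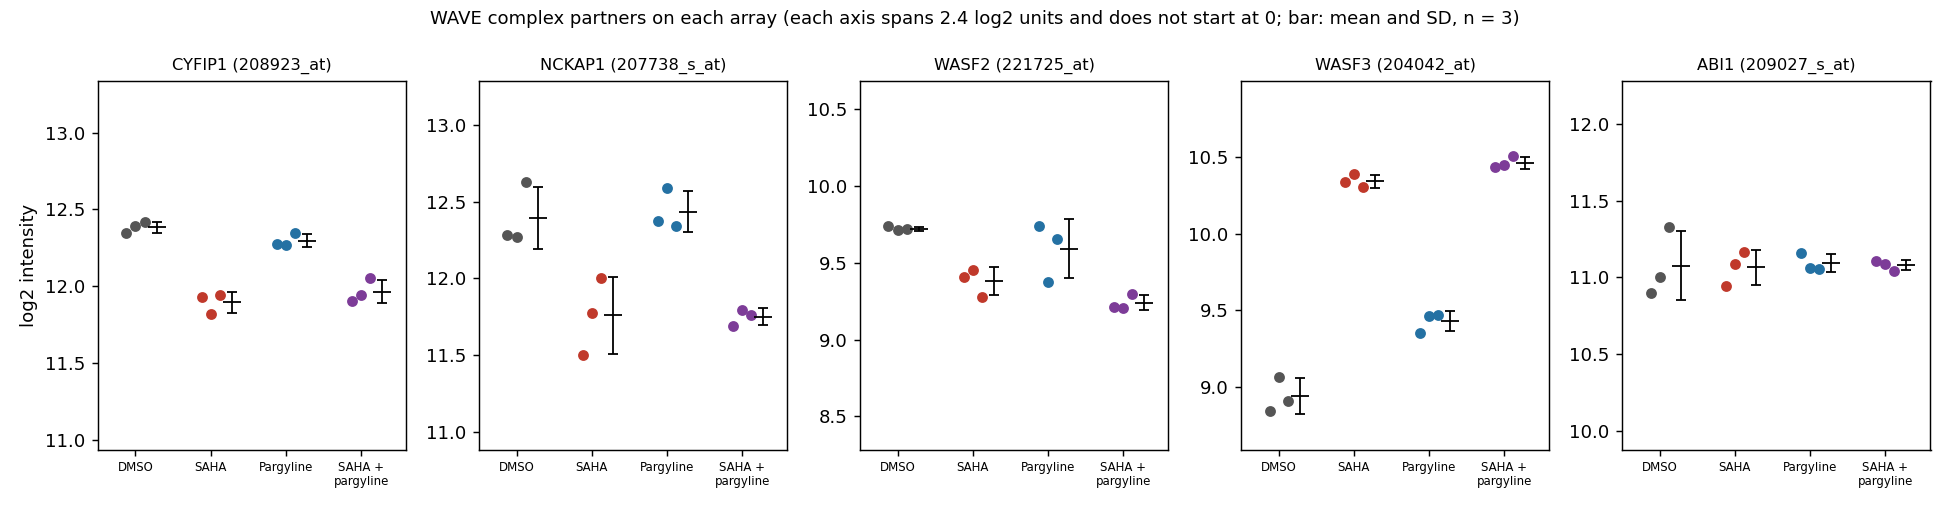
Log2 intensity (vertical axes, each spanning 2.4 units and not starting at 0) of the 5 measured partners on each array by treatment group (horizontal axes); points are arrays and bars the mean and SD of 3. CYFIP1, NCKAP1 and WASF2 are lower in both SAHA groups, WASF3 steps up from 8.84 to 9.07 with DMSO to 10.43 to 10.50 with both drugs, and ABI1 overlaps in all groups.

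Pargyline added to SAHA and SAHA added to pargyline were compared to separate the drugs. When pargyline was added to SAHA, 0 of the 5 partners passed in limma, also 0 at an unadjusted p under 0.05 and with any 1 array left out, against 16.6% of all genes (7.88% higher and 8.71% lower). With array weights WASF2 passed (-0.18, adjusted p = 0.0485 in limma). When SAHA was added to pargyline, 4 of 5 passed, against 47.5% of all genes (23.9% higher and 23.6% lower): WASF3 rose by 1.03 ± 0.06, and NCKAP1 (-0.68 ± 0.13), WASF2 (-0.35 ± 0.08) and CYFIP1 (-0.33 ± 0.05) fell. SAHA against pargyline directly gave 3 of 5, against 46.2% (23.4% higher and 22.7% lower). In the interaction, the contrast from which CYFIP2 was taken, 1 of 5 partners was called, against 3.72% of all genes (1.28% higher and 2.44% lower): WASF3 at -0.37 ± 0.08. That call was lost with quantile normalization, array centring, both filters on dim genes, a trended and robust prior, and without any 1 of DMSO replicate 1 or 3, SAHA replicate 1, 2 or 3, pargyline replicate 2 or 3, or COMBO replicate 1 or 2. The other values were CYFIP1 at 0.16 ± 0.07, NCKAP1 at -0.05 ± 0.19, WASF2 at -0.01 ± 0.12 and ABI1 at 0.00 ± 0.14.

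The machinery around the complex was described by lists of 131 genes, 105 of them measured, covering its activators, its target and other regulators of actin and translation. With SAHA 27 rose, 30 fell and 48 did not pass, so that 54.3% passed against 46.2% of all genes. With pargyline 10 rose, 12 fell and 83 did not pass (21% against 15.9%). With both drugs 29 rose, 35 fell and 41 did not pass (61% against 48.3%). The median difference over the lists was -0.01, -0.01 and -0.07.

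Exchange factors load RAC1 with GTP. Their list, which also holds the ELMO partners of DOCK proteins, had 17 genes measured. Of these, 3 rose and 4 fell with SAHA, 2 rose and 1 fell with pargyline, and 4 rose and 5 fell with both. Thus 41.2%, 17.6% and 52.9% passed, close to the 46.2%, 15.9% and 48.3% of all genes. DOCK1 fell by 2.05 ± 0.21 with SAHA and 1.69 ± 0.21 with both drugs, while DOCK4 rose by 1.14 ± 0.15 and 1.17 ± 0.15. ELMO2, a partner of DOCK proteins, rose by 0.94 ± 0.08 and 0.92 ± 0.08.

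The Arp2/3 complex is the target of the freed WASF end. Of 9 subunit genes measured, 5 fell and 1 rose with SAHA, where 23.1% of all genes were called lower. With pargyline 1 fell, against 7.45% of all genes. With both drugs 7 fell and 1 rose, where 24% of all genes were called lower. With quantile normalization 4 fell and 1 rose with SAHA, and 6 fell and 1 rose with both drugs. Under array centring 8 fell and 0 rose with both drugs, and 7 fell with pargyline. That centring called 7519 of all 11963 genes lower with both drugs and 6168 with pargyline. ARPC1B read 11.67 to 11.80 with DMSO, 10.20 to 10.29 with SAHA, 11.78 to 11.84 with pargyline and 10.53 to 10.78 with both. It fell by 1.47 ± 0.06 with SAHA and by 1.06 ± 0.06 with both (adjusted p = 7.69e-08 and 4.48e-07 in limma). ACTR3, one of the actin-like subunits, fell by 0.76 ± 0.04 and 0.63 ± 0.04. ARPC1A, the paralog of ARPC1B, rose by 0.32 ± 0.04 with SAHA and by 0.12 ± 0.04 with both. ARPC1B and ACTR3 thus fell with SAHA as CYFIP1, NCKAP1 and WASF2 did, while ARPC1A and WASF3 rose.

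**Figure D5:**
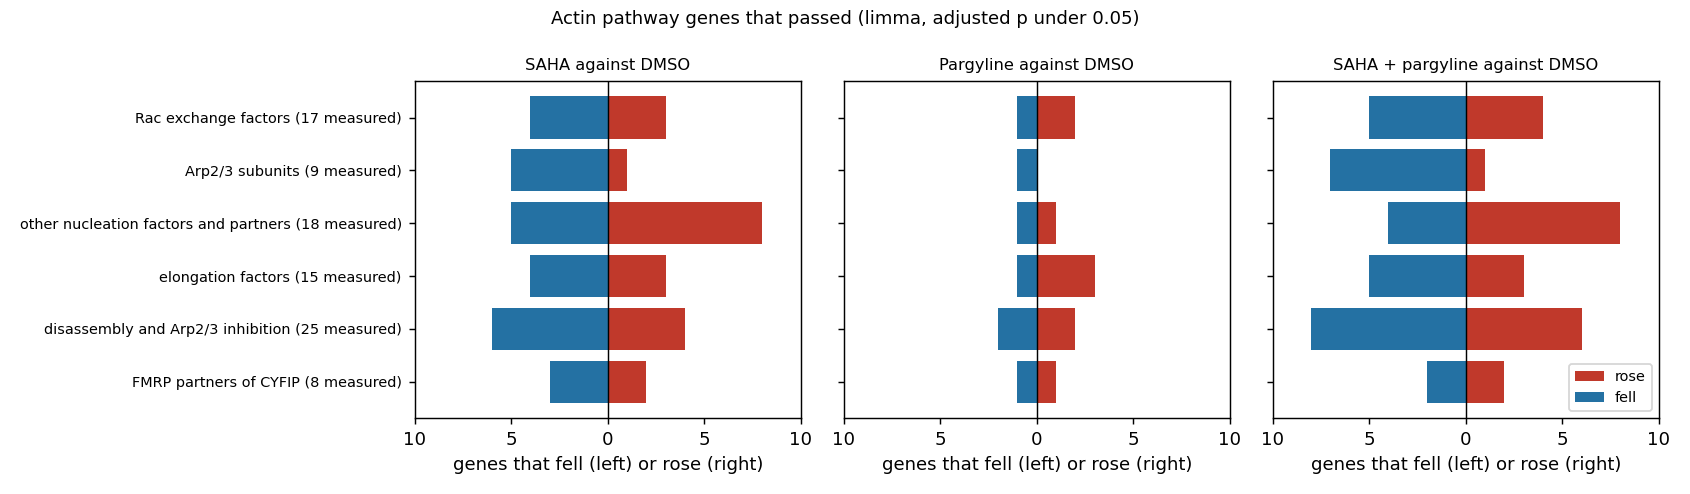
Number of genes that rose (right) or fell (left) against DMSO in 6 lists of actin and CYFIP pathway genes (vertical axis, number measured in brackets), for SAHA, pargyline and both drugs. The Arp2/3 bars lie mainly to the left with SAHA (5 fell, 1 rose) and with both drugs (7 fell, 1 rose), and the other lists hold genes on both sides.

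Other factors that start or bind new filaments went both ways. Of 18 measured, 8 rose and 5 fell with SAHA, 1 rose and 1 fell with pargyline, and 8 rose and 4 fell with both. The shares that passed were 72.2%, 11.1% and 66.7%, against 46.2%, 15.9% and 48.3% of all genes. COBL, a nucleator of unbranched filaments, read 1.89 to 2.86 with DMSO, 6.49 to 6.64 with SAHA, 2.93 to 3.08 with pargyline and 7.91 to 8.28 with both, and rose by 4.21 ± 0.21 and 5.78 ± 0.21 in the SAHA groups. It met the level asked of named genes through the arrays with both drugs alone, and its levels without SAHA lay below 5.27, the median over all values, so the size of the rise rests on low readings. WIPF1, a partner of WASP proteins, fell by 1.38 ± 0.16 with SAHA. Of 15 elongation factors, 3 rose and 4 fell with SAHA, 3 rose and 1 fell with pargyline, and 3 rose and 5 fell with both. Here 46.7%, 26.7% and 53.3% passed, beside the same shares of all genes. Among the formin genes of this list, DAAM1 rose by 2.95 ± 0.24 with SAHA and DIAPH2 fell by 1.86 ± 0.17, with further probe sets of DIAPH2 from -3.49 to -0.31. FMNL1 fell by 1.56 ± 0.09 and INF2 rose by 0.27 ± 0.07 with SAHA, with highest group means of 5.24 and 4.39, below the median gene level. DIAPH1, DIAPH3, DAAM2, FHOD1 and FHOD3 did not pass with SAHA. With pargyline FHOD3 rose by 0.95 ± 0.15 and FHOD1 by 0.65 ± 0.08, while DIAPH1 fell by 0.66 ± 0.05. FHOD3 met the level asked of named genes through the pargyline arrays alone (mean 7.27, against 6.32 with DMSO). DAAM1 met that level in the drug groups and not with DMSO (mean 6.96).

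A further list covered filament disassembly, capping and Arp2/3 inhibition, with regulators that act for or against them. Of 25 genes measured, 4 rose and 6 fell with SAHA, 2 rose and 2 fell with pargyline, and 6 rose and 8 fell with both. As shares, 40%, 16% and 56% passed, against 46.2%, 15.9% and 48.3% of all genes. CORO1A, listed above as like CYFIP2, read 1.85 to 2.44 with DMSO, 6.92 to 8.64 with SAHA, 1.39 to 2.49 with pargyline and 6.72 to 8.14 with both, and rose by 5.86 ± 0.49 with SAHA. It met that level through the SAHA groups alone, and its readings without SAHA also lay below 5.27, with the same limit on the size of the rise. GSN, the filament-severing protein gelsolin, rose by 4.00 ± 0.20 with SAHA and 4.07 ± 0.20 with both. GSN met the level asked of named genes in the drug groups and not with DMSO (mean 6.76). With pargyline it rose by 1.20 ± 0.20, while its further probe set gave 0.01. CAP2, which recycles actin monomers, fell by 3.76 ± 0.23 and 3.98 ± 0.23 in the SAHA groups.

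The list for FMRP itself and proteins tied to it or to translation held 8 measured genes. Of these, 2 rose and 3 fell with SAHA, 1 rose and 1 fell with pargyline, and 2 rose and 2 fell with both drugs. That was 62.5%, 25% and 50% of this short list, against 46.2%, 15.9% and 48.3% of all genes. FMR1 itself fell by 0.47 ± 0.13 with SAHA (adjusted p = 0.0128 in limma, 0.051 without DMSO replicate 3), and its relative FXR2 rose by 0.59 ± 0.13. EIF4E, the cap-binding protein that CYFIP1 is known to hold, fell by 0.42 ± 0.05 with SAHA, by 0.23 ± 0.05 with pargyline and by 0.57 ± 0.05 with both drugs. EIF4EBP1, another protein that holds EIF4E, fell by 0.52 ± 0.09 with SAHA and by 0.58 ± 0.09 with both drugs. It rose by 0.34 ± 0.09 with pargyline (adjusted p = 0.0244 in limma), a call lost with array centring (0.0885), with these groups compared alone (0.0597) and without DMSO replicate 1 (0.0527) or 3 (0.069) or pargyline replicate 1 (0.0767).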

How the data were processed

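The study's arrays gave 1 log2 value per probe set and sample. Per the submitters' processing notes the authors made the deposited log2 intensities with RMA; software version, background model and whether arrays were normalized together are not given in the sources used here. Values were used as deposited. Probe sets were named from the platform annotation: 19064 were listed for 1 gene, 1043 for several and 2108 for none, and symbols were updated by gene identifier (RefSeq, GRCh38.p14).

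A mean per group was fitted to all 12 arrays (8 residual degrees of freedom) with lmFit and eBayes in limma 3.58.1 under R 4.3.3; tests were two-sided. Each gene was represented by its probe set with the highest mean, and further probe sets come from a fit of every probe set. The procedure was tested on simulated data. Members and lists were chosen with earlier results of these data known. Named were all members, up to 3 passing genes per list and comparison with DMSO whose highest group mean exceeded 7.06, the level of the median gene, and the genes most like CYFIP2. One of the pathway lists counts in the totals over all lists but is not reported here. Alternatives are given at the end.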

Additional observations from a re-analysis of the deposited data

Results flagged for a closer look

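Differences between the effect of SAHA with and without pargyline are listed for 2 members. For CYFIP2 the difference was 2.14 ± 0.38 (SE), an effect of SAHA of 4.58 without pargyline and 6.71 with it; this value chose the gene and is no test of it. For WASF3 it passed the threshold of the fit, a call lost under several alternatives, and was -0.37 ± 0.08, an effect of 1.40 without pargyline and 1.03 with it. No groups were checked for single outlying arrays, since each held 3.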

How the results depend on the processing

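Of the partner differences recomputed under the alternatives, 732 were unchanged, 13 lost their call, 5 gained one and 0 of the called ones turned direction. All 13 were lost when at least a 2-fold change was asked. The 732 include the setting with values floored at the median, which gives no p and left every partner value as it was. The partner counts moved when at least a 2-fold change was asked: 1 passed with SAHA against DMSO, 0 with pargyline, 1 with both drugs, 1 for both drugs against pargyline and 0 for SAHA against pargyline. Centring each array on its median gave 3 with pargyline (1 higher, 2 lower), and array weights gave 1 for both drugs against SAHA. The call on WASF3 in the interaction was lost (0 partners) with quantile normalization, array centring, without genes below the lower tertile or the median, with a trended and robust prior, at an adjusted p under 0.01 and at 2-fold, and leaving out 1 array gave 0 to 1. Leaving out DMSO replicate 1 or 3, any SAHA array, pargyline replicate 2 or 3, or COMBO replicate 1 or 2 ended it; the cause was not tested. The CYFIP2 interaction was 1.49 with the mean of its probe sets, 1.69 with array weights and 0.36 with values floored at the median, and 1.92 to 2.52 with 1 array left out, the highest without pargyline replicate 3. Pathway counts were 20 with SAHA and 21 with both drugs at 2-fold. With pargyline they were 46 with array centring, 34 with array weights, 12 at an adjusted p under 0.01 and 2 at 2-fold. Array centring put the median gene at -0.10 with SAHA, -0.15 with pargyline and -0.17 with both, and the share of calls that were higher at 36.9%, 12.4% and 25%, against 49.9%, 53.2% and 50.3%. With replicate number as a block 4, 1 and 4 partners passed against DMSO with SAHA, pargyline and both, and 57, 28 and 68 pathway genes; no call on a member changed, and over all genes the interaction calls went from 445 to 670. The numbers were not taken as pairs, because that asked for r over 0.1 between the deviations of every same-numbered pair and 13 of 18 reached it; the median r was 0.136, against -0.0683 for different numbers, and 11 of 12 arrays correlated best with their own number, a hint from the data of a shared effect. With 3 arrays a group and no detection calls, small differences and levels near the floor are not resolved.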
